A study of Mus musculus with 110 samples.

Results

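RNA on HA-tagged ribosomes of astrocytes was compared between 4 libraries of R6/2 mice that received a zinc-finger protein (ZFP) and 3 libraries of R6/2 mice that received Delta, against which the ZFP was set, across all genes. These 7 libraries are those of the astrocyte pulldown (IP) of the set named n_ZFP_a_Rpl, out of 110 libraries in the series. The conditions are R6/2 with ZFP (RZ), R6/2 with Delta (RD), NCAR with ZFP (NZ) and NCAR with Delta (ND). The same IP has 4 NZ and 4 ND libraries, and each has an Input library, which holds the RNA of the tissue before the pulldown. A further astrocyte IP, the MG set, has 4 libraries of each condition and no Input here. ZFP and Delta were delivered by AAVs described as specific for a cell type, in astrocytes and in neurons, and the cell type that received the ZFP in this set is not named by the labels. The strain label R6/2 stands on the NCAR samples too. The sources used here give no tissue, age, sex, promoter or tagged ribosomal protein. Replicates carry numbers but no word on whether they are animals or pools, so p-values measure the spread between these samples, which may be technical.

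R6/2 mice carry a fragment of the human huntingtin gene with an expanded CAG repeat and are a model of Huntington's disease, in which projection neurons of the striatum lose expression of many of their receptor, channel and signalling genes. Astrocytes take up glutamate and potassium, make and export lipids, and supply neurons with metabolites. The ZFP of the study is a transcriptional repressor directed at mutant huntingtin. A ribosome pulldown enriches the RNA of the cells that carry the tag, and RNA of other cells can remain in it.

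The assigned counts were 46.0 to 50.3 M per library in RZ and 43.8 to 44.3 M in RD. Values are CPM, read counts scaled to a common library size after TMM, and fold changes are log2 values, RZ over RD, with their standard error. Of 24056 genes, 15246 had enough counts to be tested. Correlations of log2 CPM across genes were 0.991 to 0.994 between RZ libraries, 0.989 to 0.992 between RD libraries and 0.981 to 0.987 between an RZ and an RD library. Of 26 astrocyte markers, all were higher in the ND IP than in the ND Input (median 1.72 on the log2 scale). Microglia markers were lower there, with a median of -5.73, and endothelial and mural markers too, at -4.37. Genes of striatal projection neurons had a median of -0.26 (3 higher and 26 lower of 45) and interneuron markers one of 1.19 (17 higher and 0 lower of 20). Genes common to neurons had a median of 0.29 (14 higher and 4 lower of 20). Those of the synaptic vesicle and its release had one of 0.30 (23 higher and 6 lower of 39). Over all 15371 genes tested there, 5502 were higher and 5441 lower. The pulldown thus held RNA of neurons beside that of astrocytes.

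The human transgene has no row in the table, so the ZFP's target could not be followed. Htt, the mouse huntingtin gene, had 424, 416, 395 and 384 CPM in the RZ libraries, against 404, 409.7 and 407 CPM in the RD libraries. These groups overlapped, and the difference was -0.01 ± 0.04 (edgeR adjusted p = 0.902). Rpl22, a ribosomal protein gene, had 254, 322, 236 and 196 CPM in the RZ libraries, against 210.4, 177 and 188 CPM in the RD libraries, which overlap too. Its difference was 0.40 ± 0.16 (edgeR adjusted p = 0.068), and it passed the threshold with DESeq2.

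Genes of the pulldown differed between RZ and RD in both directions. At an adjusted p under 0.05, 2915 genes were higher in RZ (19.1% of those tested) and 2236 were lower (14.7%), 5151 or 33.8% in all, and the median over all tested genes was -0.00. The CPM of all 4 RZ libraries lay above those of all 3 RD libraries for 3398 genes (22.3%) and below them for 2855 (18.7%). Among genes with a mean of at least 5 CPM over the 7 libraries, 127 rose by at least 1 on the log2 scale and 27 fell by at least 1. Of the 127, 17 were also higher in NZ than in ND, and of the 27, 22 were also lower in NZ than in ND. By the test of the difference between the genotypes, 122 of the 127 rose more in R6/2 than in NCAR. The 127 were chosen by the RZ and RD change, which that test reuses, so the 122 is no independent support. The plot of fold change against level shows both groups of genes.

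**Figure D1:**
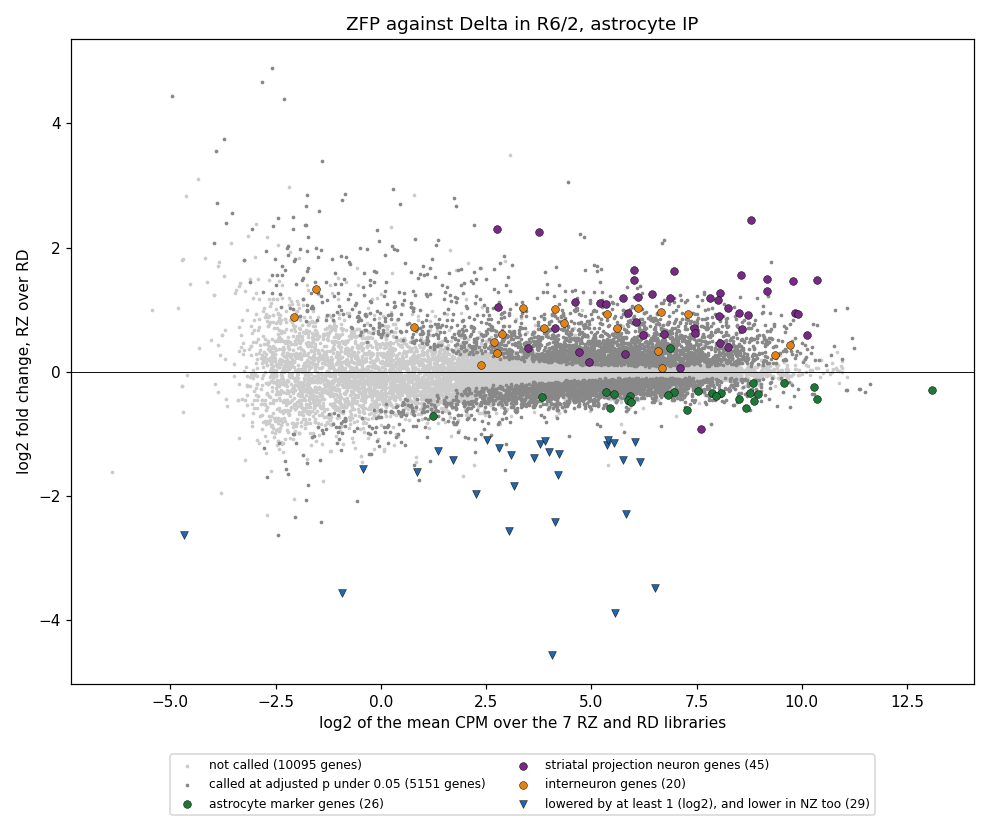
Each point is a tested gene, by the log2 of its mean CPM over the 7 RZ and RD libraries (horizontal) and its log2 fold change, RZ over RD (vertical), with 5151 called genes in dark grey and marker lists in colour. Striatal projection neuron genes lie mostly above 0 and astrocyte markers mostly below it, and the 29 genes that fell by at least 1 and were lower in NZ too (triangles) reach -4.55.

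Among the 15 genes with the highest fold changes, several encode ion channels, transmitter receptors or signalling proteins. Cd4, which encodes the co-receptor of helper T cells, had 34.7, 39.0, 32.0 and 34.5 CPM in the RZ libraries, against 5.28, 2.95 and 4.47 CPM in the RD libraries. Scn4b, a sodium channel beta subunit, had 680.0, 737, 642 and 652 CPM in the RZ libraries, against 144, 94.8 and 134 CPM in the RD libraries. Every RZ library exceeded every RD library for both genes, and the fold changes were 3.05 ± 0.20 and 2.45 ± 0.17. Kcnh4, a voltage-gated potassium channel, had 10.6, 9.87, 10.7 and 9.90 CPM in the RZ libraries, against 2.36, 1.74 and 2.12 CPM in the RD libraries. Ryr1, a calcium release channel of the endoplasmic reticulum, had 19.9, 19.4, 19.6 and 23.1 CPM in the RZ libraries, against 5.40, 3.24 and 4.24 CPM in the RD libraries. Their fold changes were 2.31 ± 0.14 and 2.25 ± 0.23, again with no overlap. In the NCAR libraries Scn4b had 1278 to 1832 CPM with ZFP and 1259.9 to 1684 CPM with Delta, so that the RZ libraries stood between the RD and the NCAR levels. The same order held for Cd4 (52.1 to 81.1 CPM in NZ and 48.3 to 65.4 CPM in ND), Kcnh4 (16.2 to 23.9 and 17.2 to 21.6 CPM) and Ryr1 (48.5 to 84.3 and 40.0 to 57.9 CPM). The RD libraries enter the ND comparison as well as the RZ one, so the 2 differences are not independent.

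Htr2a, a serotonin receptor, had 37.4, 45.5, 37.7 and 40.7 CPM in the RZ libraries, against 10.3, 7.97 and 7.64 CPM in the RD libraries. The RZ libraries were also above the 22.8 to 26.8 CPM of the ND libraries and overlapped the 35.1 to 38.9 CPM of NZ, while RD lay below all of them. Hrh3, a histamine receptor, had 44.5, 42.2, 34.6 and 48.2 CPM in the RZ libraries, against 7.83, 9.03 and 11.4 CPM in the RD libraries. Oprk1, the kappa opioid receptor, had 50.9, 55.3, 41.5 and 43.8 CPM in the RZ libraries, against 16.4, 13.0 and 14.3 CPM in the RD libraries. The fold changes were 2.23 ± 0.10 for Htr2a, 2.17 ± 0.14 for Hrh3 and 1.72 ± 0.11 for Oprk1. Of intracellular signalling genes, Rasgrp2, an exchange factor for small GTPases, had 156, 162, 153 and 141 CPM in the RZ libraries, against 41.6, 31.3 and 35.8 CPM in the RD libraries. Camk4, a calcium and calmodulin dependent kinase, had 902, 1016, 887 and 743 CPM in the RZ libraries, against 274, 207 and 298 CPM in the RD libraries, and its RZ range reached into the ND range of 958 to 1027 CPM. Their fold changes were 2.08 ± 0.13 and 1.77 ± 0.14.

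Egr1, an immediate early transcription factor, had the largest NCAR change of the 15 highest genes. It had 136, 167, 148 and 185 CPM in the RZ libraries, against 46.4, 25.3 and 37.9 CPM in the RD libraries, a fold change of 2.12 ± 0.27. In NCAR it had 169, 244, 178 and 243 CPM with ZFP, against 51.7, 63.5, 76.1 and 107 CPM with Delta, and that change was 1.48 ± 0.24. The difference between the genotypes was 0.64 ± 0.34 and did not pass the threshold (edgeR adjusted p = 0.242), while the other 14 did. Htr2a, given above, also had all NZ libraries above all ND libraries. Ier5l, an immediate early response gene, had 11.8, 12.7, 12.1 and 12.6 CPM in the RZ libraries, against 3.90, 3.35 and 3.92 CPM in the RD libraries, a fold change of 1.72 ± 0.08. Its NCAR libraries did not separate, at 18.9 to 22.7 CPM in NZ and 19.5 to 21.5 CPM in ND. The remaining 4 were Igfbp4, a binding protein of insulin-like growth factors (1.70 ± 0.07), Hrk, a pro-apoptotic member of the BCL2 family (1.68 ± 0.12), Clec12a, a lectin receptor of myeloid cells (1.68 ± 0.17), and Zcwpw1, a reader of histone methylation (1.65 ± 0.10). All 15 had non-overlapping RZ and RD libraries, as the rule for naming them required.

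**Figure D2:**
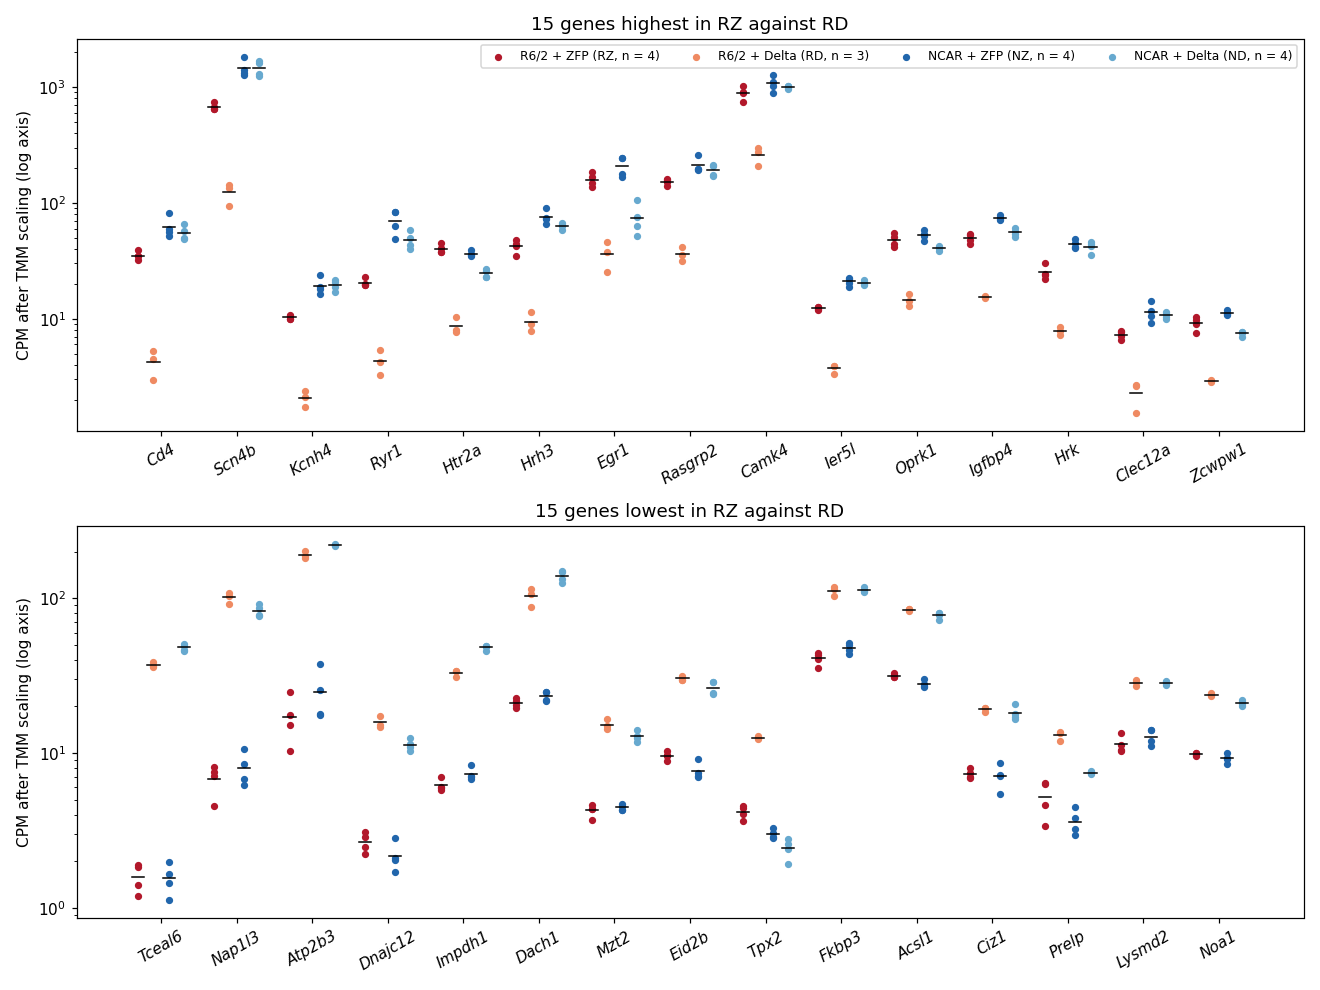
CPM of each library on a log axis for the 15 genes with the highest (top) and the 15 with the lowest (bottom) fold change, RZ over RD, with RZ, RD, NZ and ND from left to right and bars at the group means. Among the lowest genes the RZ and NZ libraries lie together below RD and ND, except for Tpx2, whose RD libraries at 12.3 to 12.8 CPM lie above all others.

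Of 45 genes of striatal projection neurons, 41 rose and 1 fell (median 1.02), and 38 rose in the Input as well (11.1% of all genes tested there rose). Over all tested genes of the IP, 19.1% rose and 14.7% fell, the shares to set beside this and the following lists. Syndig1l, a synapse differentiation protein, had 81.4 to 99.0 CPM in RZ, against 23.6 to 32.2 CPM in RD (1.64 ± 0.15). Penk, the precursor of enkephalin, had 749 to 868 CPM in RZ, against 244 to 299 CPM in RD (1.499 ± 0.08), and Drd1a, the D1 dopamine receptor, had 318 to 367 CPM in RZ, against 124 to 165 CPM in RD (1.16 ± 0.12). The summed level of the 45 was 14638 to 16763 CPM in RZ, 6411 to 8310.4 CPM in RD, 18317 to 24101 CPM in NZ and 18659 to 21729.6 CPM in ND. None of the listed genes of this type was at 0 in the 7 libraries. The ZFP change in R6/2 was above that in NCAR for 39 of the 45 (11.4% of all tested genes passed that test in this direction). In these bulk libraries, fewer cells of a type and less RNA per cell cannot be told apart. Whether neuronal RNA carried over into the pulldown takes part in these changes was not tested.

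The member that fell was Arpp21, a cAMP-regulated phosphoprotein of striatal neurons. It had 140.3, 133, 133 and 157 CPM in the RZ libraries, against 308, 219 and 275 CPM in the RD libraries, with no overlap and a fold change of -0.92 ± 0.11. In NCAR its fall was larger, at 185, 193, 147 and 181 CPM in NZ, against 729.8, 691, 640.1 and 778 CPM in ND (-2.01 ± 0.11), and the difference between the genotypes was 1.09 ± 0.15 (edgeR adjusted p = 0.000333). The RZ and NZ libraries thus had close levels, while RD lay well below ND.

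Of 20 interneuron markers, 13 rose and none fell (median 0.72). Kit, a receptor tyrosine kinase, had 86.8, 89.7, 91.5 and 86.4 CPM in the RZ libraries, against 47.3, 40.5 and 42.3 CPM in the RD libraries, a fold change of 1.03 ± 0.05. Genes of cholinergic neurons were among them, with Slc18a3, the vesicular acetylcholine transporter, at 20.4 to 24.6 CPM in RZ, against 9.72 to 13.2 CPM in RD (1.01 ± 0.11) and Slc5a7, the choline transporter, at 117 to 133 CPM in RZ, against 60.8 to 72.5 CPM in RD (0.97 ± 0.09). Th, the rate-limiting enzyme of dopamine synthesis, had 12.1 to 14.4 CPM in RZ, against 5.64 to 7.91 CPM in RD (1.02 ± 0.10). Of 20 genes common to neurons, 10 rose and none fell (median 0.28), with Rbfox3, the nuclear antigen NeuN, at 0.78 ± 0.08 and Syt1, the calcium sensor of transmitter release, at 0.46 ± 0.04. The summed interneuron level was 2379 to 2560.2 CPM in RZ and 1671 to 1958 CPM in RD, and the summed pan-neuronal level was 10411 to 10854 CPM in RZ and 8371 to 8756 CPM in RD. Cortical excitatory markers did not follow, with a median of -0.14. Of these 12, 1 rose, Lamp5, at 0.99 ± 0.07, and 1 fell, Rorb, at -0.37 ± 0.11. Rorb passed the threshold in 10 of 12 alternative settings.

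Of 57 potassium channel genes, 39 rose and 3 fell (median 0.48). Kcnh3, a voltage-gated channel, had 81.8 to 100.3 CPM in RZ, against 26.9 to 33.6 CPM in RD (1.51 ± 0.13), and Kcnj4, an inward rectifier, had 150.3 to 182 CPM in RZ, against 58.5 to 80.3 CPM in RD (1.19 ± 0.14). The 3 that fell were Kcna6, a voltage-gated channel (-1.12 ± 0.09), Kcnn3, a calcium-activated channel (-0.97 ± 0.09), and Kcnj10, the potassium channel of astrocytes known as Kir4.1 (-0.53 ± 0.15). Kcna6 and Kcnn3 fell in NCAR too, by 0.97 ± 0.09 and 1.15 ± 0.09. Kcnj10 had 267, 255, 303 and 299.7 CPM in the RZ libraries, against 383, 447 and 388 CPM in the RD libraries, without overlap, and passed the threshold in 11 of 12 alternative settings. Of 48 sodium and calcium channel, exchanger and pump genes, 35 rose and 2 fell (median 0.45). Slc8a2, a sodium and calcium exchanger, had 256 to 308 CPM in RZ, against 93.9 to 124 CPM in RD (1.29 ± 0.12), and Cacng4, an auxiliary subunit of AMPA receptors and calcium channels, had 20.8 to 24.8 CPM in RZ, against 8.57 to 11.5 CPM in RD (1.22 ± 0.12). The 2 that fell were Atp2b3, a calcium pump of the plasma membrane (-3.49 ± 0.28), and the IP3 receptor gene Itpr2 (-0.24 ± 0.09), which passed the threshold in only 4 of 12 alternative settings.

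Of 38 glutamate and GABA receptor genes, 21 rose and 1 fell (median 0.35). Gabrd, the delta subunit of extrasynaptic GABA receptors, had 89.1 to 106 CPM in RZ, against 32.9 to 40.2 CPM in RD (1.39 ± 0.10), and Grm5, a metabotropic glutamate receptor, had 975 to 1139 CPM in RZ, against 572 to 631 CPM in RD (0.77 ± 0.06). Grin2d, a subunit of NMDA receptors, was the member that fell, at 5.09 to 6.88 CPM in RZ, against 7.51 to 11.4 CPM in RD (-0.65 ± 0.13), and it fell in NCAR as well (-0.85 ± 0.13). Among 39 genes of the synaptic vesicle and its release, 31 rose and none fell (median 0.44), with Synpr, a synaptic vesicle membrane protein, at 234 to 320.0 CPM in RZ, against 108 to 125 CPM in RD (1.25 ± 0.10), and Cplx2, a complexin that acts on vesicle fusion, at 587 to 739 CPM in RZ, against 314 to 367 CPM in RD (0.96 ± 0.09). Among 48 genes of G protein signalling and cyclic nucleotide enzymes, 30 rose and none fell (median 0.31). Pde10a, a phosphodiesterase of the striatum, had 1755, 1963, 1734 and 1791 CPM in the RZ libraries, against 737, 532 and 672 CPM in the RD libraries (1.49 ± 0.11), and Adcy5, an adenylyl cyclase, had 1147 to 1369 CPM in RZ, against 369.9 to 476 CPM in RD (1.46 ± 0.11). Of 33 neuropeptide and growth factor genes, 15 rose and 1 fell (median 0.40), with Vgf, a granin-like neuropeptide precursor, at 0.73 ± 0.12 and Tac1, the precursor of substance P, at 0.63 ± 0.16. The member that fell was Igf1, a growth factor with a mean of 1.82 CPM (-1.61 ± 0.16), named after its values were seen. Of 25 immediate early genes, 8 rose and 1 fell (median 0.56), or 32% and 4%, against 19.1% and 14.7% of all genes. Egr3 had 81.8 to 91.7 CPM in RZ, against 24.1 to 40.1 CPM in RD (1.44 ± 0.15), and Homer1, a scaffold of metabotropic glutamate receptors, had 234 to 241 CPM in RZ, against 123 to 160.1 CPM in RD (0.75 ± 0.07). Jun was the member that fell, at -0.28 ± 0.10, and passed the threshold in 6 of 12 alternative settings.

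**Figure D3:**
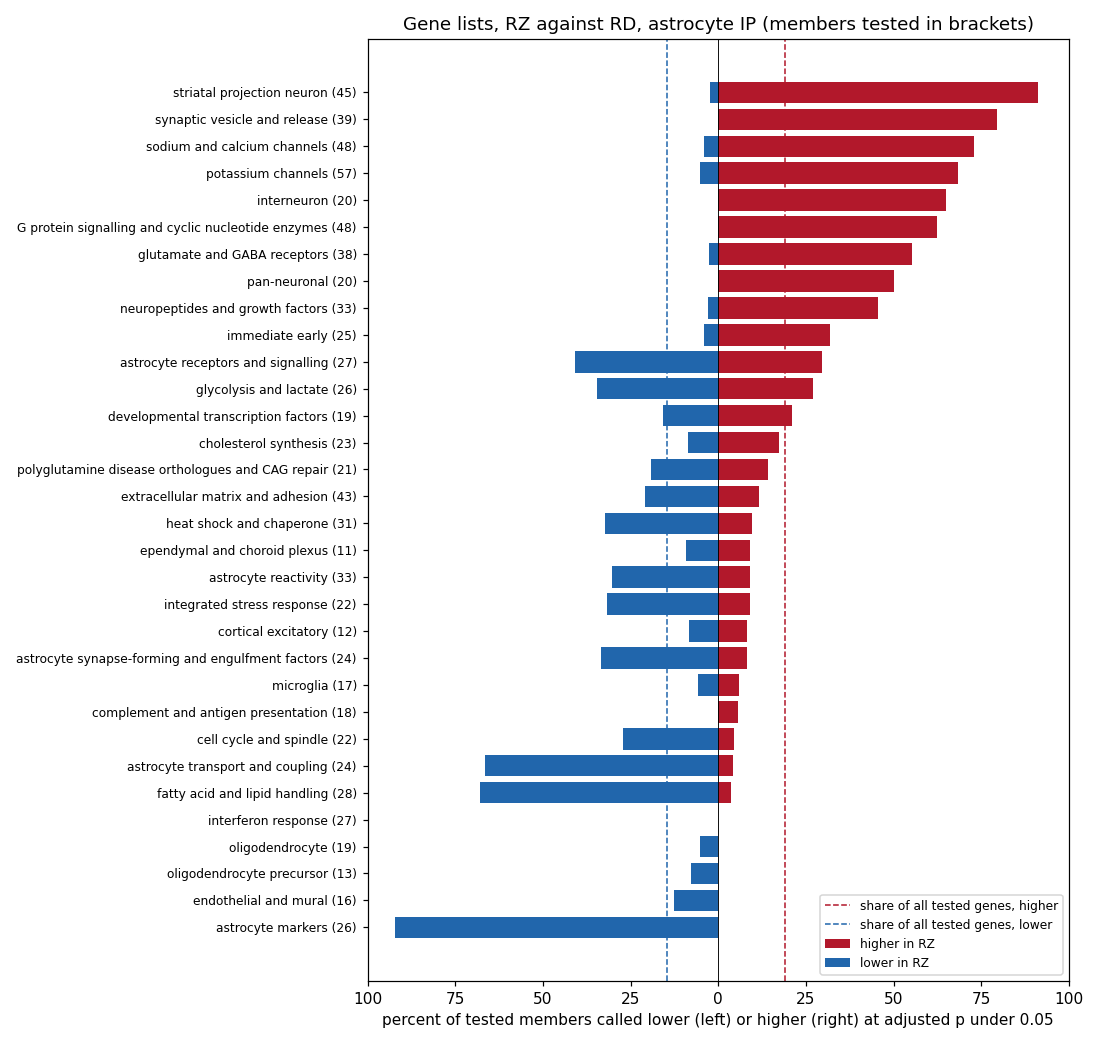
Percent of the tested members of each gene list called lower (blue, left) or higher (red, right) in RZ against RD at an adjusted p under 0.05, with dashed lines at the shares of all tested genes (14.7% lower, 19.1% higher). Striatal projection neuron, interneuron and vesicle genes extend to the right, and astrocyte markers, transport and lipid handling genes to the left. Cortical excitatory markers reach 8.33% on each side, short of both dashed lines.

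The lowest genes by the naming rule, other than Tpx2, were also lowered in NCAR. Without that rule's minimum level, 74 lower genes fell by at least 1, and 29 of these were also lower in NZ. Tceal6, a member of the transcription elongation factor A-like family, had 1.41, 1.19, 1.83 and 1.88 CPM in the RZ libraries, against 38.8, 36.3 and 35.9 CPM in the RD libraries, a fold change of -4.55 ± 0.14. In NCAR it had 1.99, 1.46, 1.66 and 1.12 CPM in NZ, against 45.5, 50.8, 46.4 and 49.3 CPM in ND (-4.95 ± 0.14). All 8 libraries with ZFP lay below all 7 with Delta. Nap1l3, a nucleosome assembly protein, had 7.55, 4.58, 7.16 and 8.06 CPM in the RZ libraries, against 103, 108 and 92.1 CPM in the RD libraries (-3.88 ± 0.18). Atp2b3 had 24.9, 10.3, 15.2 and 17.5 CPM in the RZ libraries, against 188, 201 and 182 CPM in the RD libraries (-3.49 ± 0.28). In NCAR the changes were -3.37 ± 0.17 for Nap1l3 and -3.16 ± 0.26 for Atp2b3, and neither difference between the genotypes passed the threshold. These 3 genes lie on chromosome X. Impdh1, an enzyme of guanine nucleotide synthesis, had 5.81, 7.02, 5.92 and 6.002 CPM in the RZ libraries, against 34.0, 31.0 and 33.9 CPM in the RD libraries (-2.41 ± 0.08, and -2.72 ± 0.07 in NCAR). Dach1, a transcription factor, had 22.6, 21.7, 19.5 and 20.4 CPM in the RZ libraries, against 115, 87.7 and 106 CPM in the RD libraries (-2.29 ± 0.09, and -2.57 ± 0.09 in NCAR).

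A further 9 of the 15 lowest genes shared this pattern, with an NCAR change of the same direction past the threshold and no call for the difference between the genotypes. Dnajc12, a co-chaperone, had 2.22, 2.46, 2.89 and 3.08 CPM in the RZ libraries, against 15.1, 17.4 and 14.7 CPM in the RD libraries (-2.56 ± 0.14, and -2.38 ± 0.14 in NCAR). Acsl1, which activates long-chain fatty acids, had 30.9, 32.6, 31.9 and 30.9 CPM in the RZ libraries, against 85.1, 82.9 and 84.9 CPM in the RD libraries (-1.42 ± 0.05, and -1.47 ± 0.04 in NCAR). Fkbp3, a peptidyl-prolyl isomerase, had 43.1, 35.5, 40.2 and 44.2 CPM in the RZ libraries, against 118, 114 and 103 CPM in the RD libraries (-1.46 ± 0.07, and -1.24 ± 0.07 in NCAR). The RZ and RD libraries stayed apart for each of these. The other 6 were Mzt2 (-1.84 ± 0.09), which binds the gamma-tubulin ring complex, Eid2b (-1.66 ± 0.09), Ciz1, a DNA replication factor (-1.39 ± 0.11), Prelp, a leucine-rich proteoglycan of the matrix (-1.34 ± 0.18), Lysmd2 (-1.32 ± 0.09) and Noa1, a mitochondrial GTPase (-1.29 ± 0.06).

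Across the table, 2.07% of tested genes were called in either direction between NZ and ND. Of these, 133 genes were lower in NZ than in ND (0.872% of those tested), and 76 of them were also lower in RZ than in RD, which is 57.1% of the 133 and 3.40% of the 2236. The 2 comparisons share no library. Of the 76, 5 passed the test of the difference between the genotypes, and of the 29 that fell by at least 1 in R6/2, 1 did. These genes were chosen for being lower in both genotypes, which makes such calls fewer. In the other direction, 183 genes were higher in NZ than in ND (1.2%), and 119 of them were higher in RZ too, which is 65.0% of the 183 and 4.08% of the 2915. A call in opposite directions occurred for 14 genes. Over all genes, the ZFP change in R6/2 was above that in NCAR for 1739 (11.4%) and below it for 773 (5.07%). Of the 2915 genes higher in RZ, 1622 passed this test in the same direction, and of the 2236 lower genes, 656 did. Both groups were chosen by the RZ and RD change that this test reuses. The plot of the 2 genotypes sets the changes side by side.

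**Figure D4:**
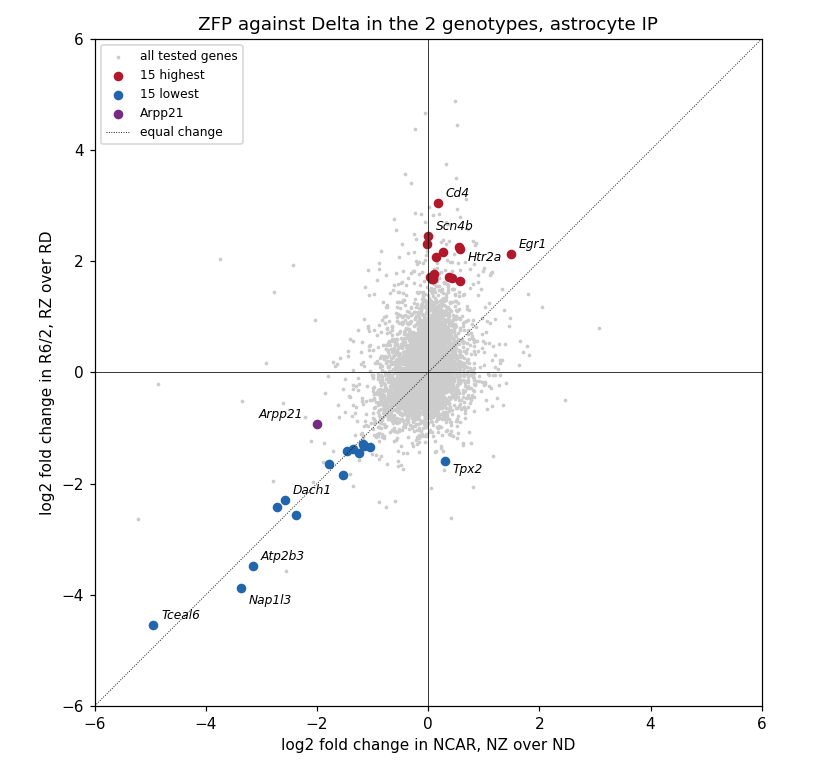
Log2 fold change of each tested gene in NCAR (NZ over ND, horizontal) and in R6/2 (RZ over RD, vertical), with the 15 highest genes in red, the 15 lowest in blue and Arpp21 in purple. The lowest genes lie near the dotted line of equal change, except Tpx2 at 0.31 in NCAR, and 14 of the highest genes lie between -0.03 and 0.58 in NCAR, with Egr1 at 1.48.

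Because the study's ZFP is a repressor of a gene with a CAG repeat, promoter windows of the lowered genes were searched for runs of at least 4 CAG triplets on either strand (read on the gene's own strand as CAG or as CTG). The windows are those of RefSeq on GRCm38.p6, 250 bases before to 50 after each gene's start, and 117 of 27025 genes with a window hold a run (0.433%). Among tested genes, 50 of 11329 did (0.441%), as did 10 of 2123 higher genes (0.471%) and 12 of 1719 lower genes (0.698%). Among the genes lower in both genotypes, a set chosen for this search after its values were seen, 52 of 76 had a window, and 5 of the 52 held a run (9.62%). These 5 were Rsl24d1, Prelp, Tceal6, Mt3 and Primpol, of which Rsl24d1, Mt3 and Primpol were named after their values were seen. Of the 15 lowest genes, 8 had a window and 2 held a run, and of the 15 highest, 11 had a window and none held one. The windows of the 3 genes with falls of at least 1 are shown with the run in capitals, as the part of the sequence that this search concerns.
Rsl24d1: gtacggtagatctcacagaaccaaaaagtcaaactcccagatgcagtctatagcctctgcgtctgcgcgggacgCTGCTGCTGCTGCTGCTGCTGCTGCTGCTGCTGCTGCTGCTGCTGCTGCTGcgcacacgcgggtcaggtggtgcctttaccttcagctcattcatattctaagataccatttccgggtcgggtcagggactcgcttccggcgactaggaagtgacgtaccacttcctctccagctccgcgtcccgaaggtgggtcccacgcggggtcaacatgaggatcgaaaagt
Prelp: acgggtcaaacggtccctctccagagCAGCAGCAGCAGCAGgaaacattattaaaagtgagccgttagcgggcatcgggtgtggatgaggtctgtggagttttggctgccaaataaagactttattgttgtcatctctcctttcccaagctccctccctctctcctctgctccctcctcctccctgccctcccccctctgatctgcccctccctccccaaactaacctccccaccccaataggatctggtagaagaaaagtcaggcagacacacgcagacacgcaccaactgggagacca
Tceal6: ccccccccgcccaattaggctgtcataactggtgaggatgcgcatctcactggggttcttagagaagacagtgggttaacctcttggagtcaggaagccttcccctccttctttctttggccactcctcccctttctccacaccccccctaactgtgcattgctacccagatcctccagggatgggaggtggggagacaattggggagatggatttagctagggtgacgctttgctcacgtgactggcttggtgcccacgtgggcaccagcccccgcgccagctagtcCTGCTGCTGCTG

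The Rsl24d1 window (chr9:73113219-73113518, plus strand) holds 17 CTG triplets from position -176 to -126, counted from the start of the gene. Rsl24d1, a factor of ribosome assembly, had 9.79, 7.45, 9.64 and 9.16 CPM in the RZ libraries, against 19.9, 20.5 and 19.9 CPM in the RD libraries (-1.16 ± 0.08, and -0.94 ± 0.08 in NCAR). The Prelp window (chr1:133921352-133921651, minus strand) holds 5 CAG triplets from position -224 to -210, and Prelp had 3.35, 6.44, 4.61 and 6.26 CPM in the RZ libraries, against 13.7, 11.9 and 13.4 CPM in the RD libraries. The Tceal6 window (chrX:135210638-135210937, minus strand) holds 4 CTG triplets at its end, from position 39 to 50. Mt3, a metallothionein of brain, changed by -0.37 ± 0.06 and Primpol, a primase and polymerase, by -0.58 ± 0.14. A run in a window is a description of the sequence and shows neither binding nor a cause, and windows without a run were searched over these 300 bases only.

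Tpx2, a spindle assembly factor, was the exception among the lowest genes. It had 4.02, 4.58, 3.65 and 4.44 CPM in the RZ libraries, against 12.5, 12.3 and 12.8 CPM in the RD libraries, a fold change of -1.59 ± 0.11. The NCAR libraries had 2.89, 2.82, 3.28 and 3.06 CPM in NZ and 2.41, 1.93, 2.60 and 2.80 CPM in ND, so that RD was the highest group and RZ lay between it and NCAR. The difference between the genotypes was -1.89 ± 0.16 (edgeR adjusted p = 4.05e-06). Among 22 cell cycle and spindle genes, 6 fell and 1 rose (median -0.50), or 27.3% and 4.55%, against 14.7% and 19.1% of all genes. When a library was left out, 4 to 7 of them fell. Mcm6, a subunit of the replicative helicase, had 7.30 to 7.56 CPM in RZ, against 11.5 to 11.9 CPM in RD (-0.65 ± 0.09), and Kif11, a spindle motor, had 3.81 to 5.77 CPM in RZ, against 6.23 to 9.17 CPM in RD (-0.71 ± 0.16). Plk2, a kinase of neuronal synapses, was the member that rose, at 426 to 452 CPM in RZ, against 237 to 313 CPM in RD (0.64 ± 0.10).

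Astrocyte genes fell modestly and together in the pulldown. Of 26 astrocyte markers, 24 fell and none rose (median -0.37), with 19 to 24 falling when a library was left out. Their summed level was 14520.1 to 15760.3 CPM in RZ, 17838 to 19293 CPM in RD, 20941 to 26839 CPM in NZ and 22573 to 27184 CPM in ND, so that the RZ libraries were the lowest of the 4 groups. The ZFP change in R6/2 was below that in NCAR for only 3 of the 26 (median difference -0.24). Of all tested genes, 5.07% passed that test in this direction. In NCAR, 1 of the 26, Slc7a10, was lower with ZFP (-0.30 ± 0.07). None of the 26 was called between RZ and RD of the MG IP (median 0.02). Slc7a10, a transporter of neutral amino acids including D-serine, had 35.9, 33.2, 37.4 and 37.3 CPM in the RZ libraries, against 52.1, 52.5 and 57.3 CPM in the RD libraries (-0.59 ± 0.08). Cldn10, a claudin, had 49.9, 55.6, 54.0 and 50.8 CPM in the RZ libraries, against 74.9, 69.6 and 76.6 CPM in the RD libraries (-0.49 ± 0.09). Neither gene's groups overlapped. Gfap, the intermediate filament of astrocytes, had 319, 285, 438 and 309 CPM in the RZ libraries, against 401, 602 and 508 CPM in the RD libraries, and these groups overlapped. Its fold change was -0.58 ± 0.17, and it passed the threshold in 8 of 12 alternative settings. Crym (0.39 ± 0.15) and Aqp4 (-0.18 ± 0.10) did not pass the threshold. In the Input, 2 of the 26 rose and 2 fell (median -0.05). The test of IP against Input change was passed by 6 of the 26 without the pairing of IP and Input libraries and by 18 with it, each lower in the IP (0.972% and 4.19% of all genes tested). Beside these falls stand the rises of the neuronal lists in the same libraries, and whether the balance of astrocyte and neuronal RNA in the pulldown takes part was not tested.

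Of 24 transport and coupling genes of astrocytes, 16 fell and 1 rose (median -0.31). Slc1a2, Slc1a3, Slc4a4, Aqp4, Gja1 and Gjb6 are also on the marker list, so these counts are not independent of those of the markers. Slc39a12, a zinc transporter, had 150.3, 144, 153 and 146 CPM in the RZ libraries, against 204, 210.3 and 206 CPM in the RD libraries (-0.48 ± 0.08), and Slc13a3, a transporter of dicarboxylates, had 23.8 to 29.8 CPM in RZ, against 34.0 to 44.8 CPM in RD (-0.55 ± 0.10). Among 28 genes of fatty acid and lipid handling, 19 fell and 1 rose (median -0.28). Abca1, which exports cholesterol to lipoproteins, had 332, 339, 378 and 368 CPM in the RZ libraries, against 519.5, 583 and 524 CPM in the RD libraries (-0.61 ± 0.07). Its NCAR libraries had 268 to 316 CPM in NZ and 258 to 309.7 CPM in ND, below both R6/2 groups. Scd1, a fatty acid desaturase, had 165 to 200.5 CPM in RZ, against 236 to 268 CPM in RD (-0.52 ± 0.12), with NCAR levels of 263 to 370.1 CPM in NZ and 370.4 to 467 CPM in ND. Srebf1, a transcription factor of lipid synthesis, had 211 to 265 CPM in RZ, against 288 to 348 CPM in RD (-0.47 ± 0.09). Abcg1, a further sterol exporter, was the member that rose, at 212 to 228 CPM in RZ, against 172 to 197 CPM in RD (0.27 ± 0.05). Of 23 cholesterol synthesis genes, 4 rose and 2 fell (median 0.07), or 17.4% and 8.70%, against 19.1% and 14.7% of all genes, with 2 rising without RD replicate 2 or without RZ replicate 4. Among them were Pmvk at 0.27 ± 0.05 and Lss, the enzyme that forms lanosterol, at -0.24 ± 0.05.

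Receptors that astrocytes can share with neurons were split. Of 27 genes of astrocyte receptors and signalling, 8 rose and 11 fell (median -0.10). The risers included P2ry1, a purine receptor, at 48.9 to 66.7 CPM in RZ, against 22.0 to 31.1 CPM in RD (1.12 ± 0.13), and Cnr1, the cannabinoid receptor of neurons, at 281 to 306 CPM in RZ, against 142 to 171 CPM in RD (0.88 ± 0.13). The fallers included Notch2 at 100.8 to 132 CPM in RZ, against 151 to 174 CPM in RD (-0.43 ± 0.09), S1pr1, a sphingosine phosphate receptor, at 308 to 319.6 CPM in RZ, against 388 to 430.1 CPM in RD (-0.40 ± 0.07), and Bmpr1b, a receptor of bone morphogenetic proteins, at -0.39 ± 0.08. Notch2, S1pr1 and Bmpr1b were higher in the IP than in the Input in ND by more than 2-fold, and P2ry1 and Cnr1 were not. Of 33 genes of astrocyte reactivity, 10 fell and 3 rose (median -0.43), and 5 fell without RD replicate 3 or without RZ replicate 1, and 6 without RD replicate 2. The shares of 30.3% and 9.09% stand against 14.7% and 19.1% of all tested genes. Ggta1, a galactosyltransferase, changed by -0.47 ± 0.14 with overlapping groups and passed the threshold in 10 of 12 alternative settings, and Fkbp5, a co-chaperone induced by glucocorticoids, rose (0.40 ± 0.08). Of 24 synapse-forming and engulfment factors, 8 fell and 2 rose (median -0.21), or 33.3% and 8.33%, against 14.7% and 19.1% of all genes. Gpc5, a glypican, had 95.5 to 115 CPM in RZ, against 146 to 149.9 CPM in RD (-0.45 ± 0.10), and Lgi4, a secreted ligand of ADAM proteins, had 47.6 to 54.5 CPM in RZ, against 61.3 to 72.1 CPM in RD (-0.45 ± 0.07). The 2 that rose were Nlgn1 (0.35 ± 0.05) and Nlgn2 (0.23 ± 0.05), the synaptic adhesion proteins neuroligin.

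Genes were also sorted by their enrichment in the ND pulldown, from libraries that the RZ and RD comparison does not use. Of 518 genes higher in the IP than in the Input by more than 2-fold, 276 fell in RZ (53.3%) and 26 rose (5.02%), with a median of -0.32. Of the 863 tested genes lower in the IP, 38 fell (4.40%) and 107 rose (12.4%), with a median of 0.02. Of the 13532 others, 1907 fell (14.1%) and 2778 rose (20.5%). In the Input, 508 of the 518 could be tested, and 30 fell and 31 rose. With enrichment of any fold, 24.7% of the genes higher in the IP fell and 13.9% rose, so the share of falls depends on how strictly enrichment is set. The enriched genes that rose most were not astrocyte markers. They included Kit, Th, Slc18a3, Ecel1, Slc5a7, Tacr1 and Nos1, at 0.93 ± 0.09 to 1.03 ± 0.05, and 5 of them are on the interneuron list.

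Nos1, the neuronal nitric oxide synthase, had 189.8, 205, 205 and 190.2 CPM in the RZ libraries, against 114, 94.7 and 102 CPM in the RD libraries, and Tacr1, the receptor of substance P, had 66.9, 66.3, 65.2 and 70.1 CPM in the RZ libraries, against 37.2, 33.9 and 34.3 CPM in the RD libraries. Neither overlapped between the groups. The enriched genes that fell most were Thbs4, A2m, Hsd11b1, Parva, Ggact, Ntsr2, Slc7a10 and Acss1. Thbs4, a thrombospondin that promotes synapse formation, had 11.2, 12.5, 20.1 and 17.7 CPM in the RZ libraries, against 23.9, 28.2 and 42.3 CPM in the RD libraries (-1.03 ± 0.29), and it passed the threshold in 11 of 12 alternative settings. A2m, a protease inhibitor, had 3.55, 3.69, 4.63 and 3.98 CPM in the RZ libraries, against 7.62, 6.56 and 8.19 CPM in the RD libraries (-0.91 ± 0.19). Parva, an actin-binding adhesion protein, had 55.9, 45.3, 53.4 and 55.4 CPM in the RZ libraries, against 86.4, 81.7 and 78.0 CPM in the RD libraries (-0.64 ± 0.08). Acss1, a mitochondrial acetyl-CoA synthetase, had 47.1, 41.0, 50.05 and 49.8 CPM in the RZ libraries, against 67.6, 69.4 and 72.7 CPM in the RD libraries (-0.57 ± 0.08). No RZ library reached an RD library for any of these 4.

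In the Input, 1751 genes were higher in RZ (11.1%) and 794 were lower (5.03%). Of the 2915 genes higher in the IP, 1558 were also higher in the Input, and of the 2236 lower genes, 594 were also lower. Among genes called in both, 3 had opposite calls. IP and Input libraries of 1 condition and number deviated together from their group means, with correlations of 0.395 to 0.600 over 15 pairs, so these overlaps are not of independent samples. The test of the difference, IP change less Input change, called 144 genes higher (0.886%) and 158 lower (0.972%) without the pairing, and 604 higher (3.72%) and 681 lower (4.19%) with the pair as a block.

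The 5 genes with the largest difference on the lower side were all among those lowered in both genotypes. Tceal6 changed by -4.55 ± 0.14 in the IP and -1.62 ± 0.15 in the Input, a difference of -2.97 ± 0.22. For Nap1l3 the 2 changes were -3.88 ± 0.18 and -1.60 ± 0.20, and for Atp2b3 they were -3.49 ± 0.28 and -1.35 ± 0.21. Impdh1 (-1.37 ± 0.15) and Rimbp3, a gene of the RIM-binding protein family (-1.22 ± 0.20), followed. Of the 29 genes lower in both genotypes that fell by at least 1, 17 fell more in the IP than in the Input without the pairing and 23 with it. Over all genes tested, the shares lower in this test were 0.972% and 4.19%. The 29 were chosen by a fall in these same IP libraries, which favours a larger fall there. Their counts are therefore no independent support. On the other side, Nckap1l, a haematopoietic component of the WAVE complex, had 4.38, 4.60, 3.57 and 3.92 CPM in the RZ libraries, against 1.86, 1.92 and 1.45 CPM in the RD libraries, with no overlap. It changed by 1.24 ± 0.15 in the IP and 0.06 ± 0.09 in the Input, beside a summed level of microglia markers of 37.7 to 40.8 CPM in RZ and 42.9 to 46.5 CPM in RD. Crabp1, a retinoic acid binding protein, changed by 0.74 ± 0.07 and -0.12 ± 0.15 and Igfbp4 by 1.70 ± 0.07 and 0.96 ± 0.07. Of the 45 striatal projection neuron genes, 8 rose more in the IP than in the Input without the pairing and 28 with it (0.886% and 3.72% of all genes tested).

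**Figure D5:**
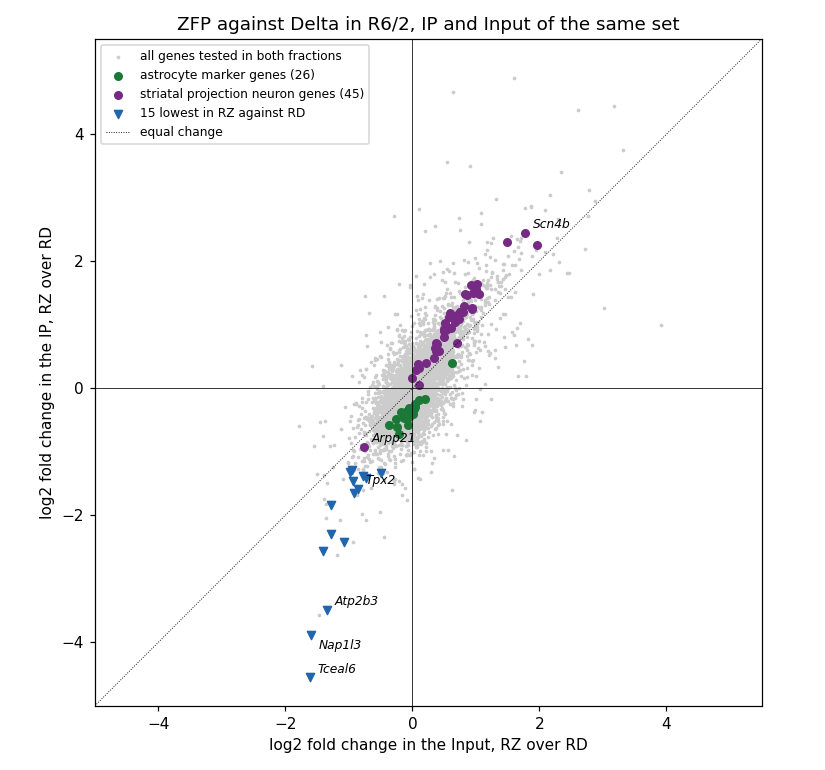
Log2 fold change, RZ over RD, in the Input (horizontal) and in the IP (vertical) of the same set for each gene tested in both. Astrocyte markers (green) lie mostly near 0 in the Input and, except Crym, below 0 in the IP. Striatal projection neuron genes (purple) lie above 0 in both except Arpp21 and, in the Input, Ebf1. The lowest genes (triangles) lie mostly below the dotted line of equal change.

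In the MG pulldown, a separate set of astrocyte libraries, few genes were called. There, 2 genes were higher in RZ than in RD (0.013%) and 10 were lower (0.0652%), together 0.0782% of those tested. Of these 12, 9 were called in the same direction here, among them Prelp, A2m, Itga7, an integrin subunit, and Kcnn3. Prelp changed by -1.34 ± 0.18 here and -2.31 ± 0.28 in the MG IP, and Kcnn3 by -0.97 ± 0.09 and -0.78 ± 0.11. The test of the difference between the sets called 1259 genes higher here (8.07%) and 771 lower (4.94%). Tceal6 was lowest in it, with -4.55 ± 0.14 here, -0.56 ± 0.13 in the MG IP and a difference of -4.02 ± 0.20. Nap1l3 had a difference of -3.69 ± 0.19, Atp2b3 of -3.54 ± 0.27 and Impdh1 of -2.45 ± 0.14. Cd4 had 3.05 ± 0.20 here and 0.25 ± 0.29 in the MG IP, a difference of 2.77 ± 0.37, and Scn4b had 2.45 ± 0.17 and 0.46 ± 0.20, a difference of 1.95 ± 0.27. Set and any difference in how the 2 sets were made cannot be told apart. These counts moved with single libraries. They were 2271 and 1154 without RZ replicate 1 of the MG IP, and 946 and 326 without RD replicate 2 of this IP, and the lower count was 391 without RD replicate 3 of this IP and 475 without RZ replicate 4 of the MG IP.

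The MG set also gave a list of genes changed in R6/2 that shares no library with the comparison of RZ and RD here. Of 2467 tested genes that were lower in RD than in ND of the MG IP (16.2% of those tested there), 1691 rose here in RZ (68.5%) and 48 fell, with a median of 0.40. They make up 58.0% of the 2915 genes that rose. Of 2648 genes that were higher in RD there (17.4%), 936 fell here (35.3%) and 27 rose, with a median of -0.15. They make up 41.9% of the 2236 genes that fell. Over all tested genes here, 19.1% rose and 14.7% fell. With an adjusted p under 0.01 in the MG IP, 1330 of 1697 lowered genes rose (78.4%) and 642 of 1445 raised genes fell (44.4%).

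Of 31 heat shock and chaperone genes, 10 fell and 3 rose (median -0.07), and without RD replicate 2 the counts were 6 and 5. The shares of 32.3% and 9.68% stand against 14.7% and 19.1% of all tested genes. Hspa5, the chaperone BiP of the endoplasmic reticulum, had 393, 372, 363 and 417 CPM in the RZ libraries, against 538, 480.3 and 473 CPM in the RD libraries (-0.36 ± 0.06). Its RZ libraries lay below RD and reached down to the NCAR ranges of 336 to 365 CPM in NZ and 335 to 367 CPM in ND. Dnajc3, a co-chaperone of the same compartment, fell by 0.31 ± 0.05. The largest fall of this list was that of Dnajc12, given above (-2.56 ± 0.14). Of 22 genes of the integrated stress response, 7 fell and 2 rose (31.8% and 9.09%, median -0.11), with 4 falling without RD replicate 3. Shmt2, an enzyme of serine and folate metabolism, had 21.7 to 24.2 CPM in RZ, against 29.0 to 34.0 CPM in RD (-0.45 ± 0.08). Psat1, an enzyme of serine synthesis, had 196 to 211 CPM in RZ, against 245 to 281 CPM in RD (-0.36 ± 0.07). In NCAR they had 19.7 to 22.2 CPM in NZ and 17.3 to 23.3 CPM in ND for Shmt2, and 178 to 222 and 182 to 219 CPM for Psat1. The called members with the largest fold changes had means under 1 CPM, which were Trib3, a pseudokinase (1.22 ± 0.37, mean 0.370 CPM), and Atf3, a transcription factor (-0.87 ± 0.32, mean 0.821 CPM), both named after their values were seen. Of 26 glycolysis and lactate genes, 9 fell and 7 rose (34.6% and 26.9%, median -0.04), with 4 falling without RD replicate 3. Eno2, the neuronal enolase, rose (0.54 ± 0.05), as did Slc16a7, a monocarboxylate transporter (0.39 ± 0.08). Pygb, the brain glycogen phosphorylase, had 477 to 519 CPM in RZ, against 622 to 661 CPM in RD (-0.38 ± 0.06), and Pdk1, a kinase that restrains pyruvate dehydrogenase, had 53.5 to 56.5 CPM in RZ, against 70.0 to 73.6 CPM in RD (-0.40 ± 0.04).

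Of 21 mouse genes whose human orthologues carry polyglutamine disease repeats or that act in repair of CAG repeats, 3 rose and 4 fell (median -0.03). These shares, 14.3% and 19.0%, were near those of all genes, 19.1% and 14.7%, with 2 falling without any of RD replicate 2, RZ replicate 2 and RZ replicate 4. Atxn1, the ataxin-1 gene, had 299, 314, 292 and 319 CPM in the RZ libraries, against 209, 179.9 and 192 CPM in the RD libraries (0.66 ± 0.06), and Cacna1a, a calcium channel gene, rose by 0.44 ± 0.05. Atxn7, the ataxin-7 gene, fell (-0.21 ± 0.06). The third riser, Atxn3 (0.15 ± 0.05), passed the threshold in 4 of 12 alternative settings, and Lig1 and Msh6, which fell, in 6 of 12 and 7 of 12. Of 43 extracellular matrix and adhesion genes, 9 fell and 5 rose (median -0.13), or 20.9% and 11.6%, against 14.7% and 19.1% of all genes. Among them were Itgb8, an integrin subunit, at 119.9 to 127 CPM in RZ, against 165 to 173 CPM in RD (-0.44 ± 0.06) and Cdh13, a cadherin, at 134 to 139.7 CPM in RZ, against 77.5 to 82.98 CPM in RD (0.77 ± 0.06). Of 19 developmental transcription factor genes, 3 fell and 4 rose (median 0.15), or 15.8% and 21.1%, near the 14.7% and 19.1% of all genes. Among them were Pax6 at 10.8 to 12.3 CPM in RZ, against 16.3 to 17.5 CPM in RD (-0.54 ± 0.07) and Zic1 at 22.0 to 31.3 CPM in RZ, against 14.8 to 16.5 CPM in RD (0.72 ± 0.15).

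Immune and other glial lists held few called genes, beside 14.7% lower and 19.1% higher over all tested genes. Some members had means under 1 CPM and rest on few counts, so a missing call there says little. No interferon response gene of 27 was called in either direction by edgeR in the main fit (median -0.02), while 1 was higher and none lower at an unadjusted p under 0.05. DESeq2 called 1 higher, and the other alternatives called at most 2 higher and at most 1 lower. No gene of complement and antigen presentation fell, while Cd47 rose (0.23 ± 0.08), of 18, and the median of these was -0.33 with 15 below 0. Cd47 passed the threshold in 6 of 12 alternative settings. Of 17 microglia markers, 1 fell and Cd68, a lysosomal protein of phagocytes with a mean of 2.73 CPM, rose (0.75 ± 0.14), with a median of -0.06. Of 16 endothelial and mural markers, Pdgfrb, a receptor of pericytes (-0.53 ± 0.07), and Myl9, a myosin light chain (-0.65 ± 0.14), fell. These are 12.5% of the 16, against 14.7% of all tested genes. The median of the 16 was -0.19, and their summed levels, which did not overlap, were 57.9 to 62.0 CPM in RZ and 72.5 to 84.4 CPM in RD. Pdgfrb alone had a mean of 35.4 CPM over the 7 libraries, so these sums rest largely on it. Of 19 oligodendrocyte markers, 1 fell and none rose, but 18 were below 0 (median -0.23), and the summed levels were 2508 to 2937 CPM in RZ and 2647 to 3601 CPM in RD. Without RD replicate 1, 9 of these 19 were called lower, and without RD replicate 2 or 3 none was. Of 13 precursor markers, Ptprz1, a receptor phosphatase that astrocytes also express, fell (-0.33 ± 0.08). The precursor median was -0.15, with summed levels of 691 to 760.4 CPM in RZ and 837 to 894 CPM in RD, which did not overlap. Of 11 ependymal and choroid plexus markers, Rarres2 fell (-0.53 ± 0.14) and Clic6 rose (0.54 ± 0.12), with a median of -0.41 and summed levels of 55.7 to 91.8 CPM in RZ and 81.8 to 112 CPM in RD. None of these markers was at 0 in all 7 libraries, and their part in the other results was not tested.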

How the data were processed

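RNA of HA-tagged ribosomes was immunoprecipitated and sequenced, per the labels' protocols. The authors deposited 1 table of raw counts per gene, made with STAR and HTSeq on mm10 per the submitters' processing notes. Versions, strand setting and annotation are not stated in those notes, so overlapping genes and near-identical copies can share reads. Of 24060 rows, 4 with a repeated symbol were left out.

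The 4 conditions of the IP were fitted together with edgeR 4.0.16 in R 4.3.3 (robust quasi-likelihood test, TMM, filterByExpr with a minimum count of 10 and a total of 15, Benjamini-Hochberg at 0.05). Differences between IP and Input and between the sets were tested as interactions in joint fits of 30 and 31 libraries. Enrichment in ND was called with glmTreat above 2-fold. Standard errors are the fold change over the root of F. DESeq2 1.42.0, other scaling, no filter, replicate blocks and left-out libraries were alternatives. The procedure was tested on simulated data.

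The members and the gene lists were chosen with earlier results of these data known. Some genes are on several lists and are counted in each. Examples are Gfap (markers and reactivity) and Drd1a (projection neurons and astrocyte receptors). Named genes are the 15 highest and 15 lowest fold changes with a mean of at least 5 CPM and no overlap, up to 4 genes per direction of each list and those against its majority, the 8 highest and 8 lowest enriched genes, the 5 highest and 5 lowest of each difference, Htt and Rpl22. Others were named after their values were seen. Genes without a name, Xist and Y-linked genes were passed over, and some genes that the rule names are not reported here.

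RZ and RD libraries of the same number did not deviate together, with correlations of -0.0695 to 0.0933 over 3 pairs, so the numbers do not pair them. IP and Input libraries did (0.395 to 0.600 over 15 pairs), a pairing taken from the data. Per-gene differences between IP and Input are from the fit without it, and the paired counts of gene sets were added after seeing the data.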

Additional observations from a re-analysis of the deposited data

Results flagged for a closer look

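In 3 groups of 4 libraries, 1 library stood apart from the others by Dixon's test, which chance gives in about 1 of 20 groups. The test was run in RZ, NZ and ND on the genes with the highest and lowest fold changes and on the named enriched genes. With that many groups, these 3 are no more than chance alone would give. Ryr1 had 23.1 CPM in RZ replicate 4, against 19.4 to 19.9 CPM in the other 3 RZ libraries, all far above RD. Rasgrp2 had 260.0 CPM in NZ replicate 2, against 193 to 198 CPM in the other NZ libraries. Hsd11b1 had 9.81 CPM in RZ replicate 2, against 11.9 to 12.02 CPM in the other RZ libraries.

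The ZFP change in R6/2 differed from that in NCAR most for 5 genes on each side, by edgeR's test of the difference. It was above the NCAR change for Cd4 (2.88 ± 0.25), Scn4b (2.44 ± 0.21), Sec14l3 (2.43 ± 0.38), Kcnh4 (2.33 ± 0.18) and Abi3bp (2.28 ± 0.26). It was below it for Tpx2 (-1.89 ± 0.16), Ipcef1 (-0.98 ± 0.18), Tor3a (-0.92 ± 0.22), Ltbp4 (-0.91 ± 0.20) and Zfp184 (-0.85 ± 0.15).

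The change in the IP was above that in the Input for Nckap1l (1.14 ± 0.17), Crabp1 (0.82 ± 0.17), Kcnh4 (0.78 ± 0.18) and Igfbp4 (0.71 ± 0.10). It was below it for Tceal6 (-2.97 ± 0.22), Nap1l3 (-2.32 ± 0.28), Atp2b3 (-2.17 ± 0.35), Impdh1 (-1.37 ± 0.15) and Rimbp3 (-1.22 ± 0.20).

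The change in this IP was above that in the MG IP for Cd4 (2.77 ± 0.37), Egr1 (2.63 ± 0.56), Scn4b (1.95 ± 0.27), Ryr1 (1.92 ± 0.26) and Camk4 (1.91 ± 0.27). It was below it for Tceal6 (-4.02 ± 0.20), Nap1l3 (-3.69 ± 0.19), Atp2b3 (-3.54 ± 0.27), Impdh1 (-2.45 ± 0.14) and Dnajc12 (-2.35 ± 0.17). All values are on the log2 scale with their standard error.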

How the results depend on the processing

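Of 168 named genes, 137 kept their direction and side of the threshold in every alternative. The 2915 higher and 2236 lower genes in RZ became 2946 and 2574 with DESeq2, 2799 and 2391 with RLE factors, and 2508 to 2698 and 1742 to 2007 when a library was left out. With the replicate number as a block they were 2799 and 2104, although the numbers do not pair these libraries. For R6/2 less NCAR, DESeq2 called 1184 genes lower in place of 773, and leaving out a library gave 1447 to 1862 higher and 550 to 836 lower. For IP less Input, DESeq2 called 332 higher and 304 lower, the block of paired IP and Input libraries 604 and 681, and the fit without a filter 99 lower. Leaving out a library gave 48 to 147 higher and 72 to 181 lower, and the counts of 144 and 158 fell by more than 1.5 times without any of Input RD replicates 1, 2 or 3, Input RZ 3 or 4, IP RD 1, 2 or 3, and IP RZ 1 or 2, in 1 direction or both. For this set less MG, the block of set and number gave 480 lower in place of 771, and leaving out a library gave 946 to 2271 higher and 326 to 1154 lower. With enrichment of any fold, 13.9% of genes higher in the IP rose and 24.7% fell, and of genes lower in the IP 26.4% rose and 8.56% fell. Htt, which passed no threshold, was between -0.034 and 0.016 when a library was left out, with 0.0033 without RZ replicate 3 and 0.016 without RZ replicate 4. Causes of these shifts were not tested. Genes near the filter's minimum rest on few counts.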

Other observations

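Of the 76 genes lower in both genotypes with ZFP, 73 have a chromosome in the reference table, and 7 of the 73 lie on chromosome X (9.59%). Of all tested genes with a chromosome, 508 of 14376 do (3.53%), as do 99 of 2124 genes lower in RZ (4.66%). This count was made after the position of the 3 lowest genes was seen.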
